A study of Mus musculus with 6 samples.

Results

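The genes described are 9 transcription factors that establish or adjust macrophage identity, listed by name: Spi1, Cebpa, Cebpb, Maf, Klf2, Klf4, Pparg, Spic and Irf5. Of these, 8 were measured among the 22180 named genes of the series, each on a probe set annotated to that gene alone, and the brightest such probe set stood for a gene with more than 1. Irf5 lay on 1 probe set, which the annotation gives to several genes, so Irf5 has no value here. One group was 3 samples of macrophages that had infiltrated BALB/c hearts transplanted into C57BL/6 mice treated with mTORi-HDL, a nanobiologic that carries an inhibitor of the kinase mTOR in high-density lipoprotein. Recipients had been given 5 mg/kg on days 0, 2 and 5, and the cells were sorted on day 6. They were compared with 3 samples of graft macrophages from recipients of the same transplant that were left untreated and rejected it. No group received the lipoprotein without the inhibitor, so carrier and inhibitor cannot be told apart. Neither the ages of the animals nor the sort markers are given in the sources used here. The labels do not say whether a sample came from 1 recipient or from pooled grafts, so the p-values measure the spread between these samples, which may be partly technical.

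Macrophages are specified by a small set of DNA-binding proteins. PU.1, the ETS-family product of Spi1, opens enhancers across the myeloid genome and acts together with the C/EBP proteins. Further factors then set the state of the cell: c-Maf in interleukin-10 producing and resident-like cells, the zinc-finger proteins KLF2 and KLF4 in restraint of inflammation and alternative activation, PPARγ in lipid handling, SpiC in iron-recycling macrophages, and IRF5 in the inflammatory program downstream of Toll-like receptors.

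Promoters were in the sequence table for 7 of the 9 factors. Those of Cebpa and Cebpb are shown because these related genes had a higher mean in treated samples under all 14 alternative settings tried (values below), and because C/EBP proteins and cAMP signalling are known to act at their promoters. The sequences are RefSeq's, build GRCm38.p6, 250 bases before to 50 bases after the annotated start, both on the + strand, at chr7:35119043-35119342 for Cebpa and chr2:167688665-167688964 for Cebpb. Capitals mark matches on either strand to TTGCG, one arm of a C/EBP site, to TGACG, one arm of a cAMP-response element, and to TATAAA, the TATA box.
Cebpa: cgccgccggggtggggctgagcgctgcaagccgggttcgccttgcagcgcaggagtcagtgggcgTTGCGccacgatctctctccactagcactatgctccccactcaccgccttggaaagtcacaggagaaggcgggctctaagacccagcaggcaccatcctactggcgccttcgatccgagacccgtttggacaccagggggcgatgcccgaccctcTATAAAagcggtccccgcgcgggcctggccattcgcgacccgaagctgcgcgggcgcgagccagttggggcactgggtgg
Cebpb: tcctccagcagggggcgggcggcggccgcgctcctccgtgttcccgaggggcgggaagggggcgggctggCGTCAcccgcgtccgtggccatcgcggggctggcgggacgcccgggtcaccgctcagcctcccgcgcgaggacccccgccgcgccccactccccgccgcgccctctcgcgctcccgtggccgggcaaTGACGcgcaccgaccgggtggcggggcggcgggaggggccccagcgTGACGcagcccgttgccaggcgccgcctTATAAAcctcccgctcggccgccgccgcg
The Cebpa promoter held 1 match to TTGCG and 0 to TGACG, and the Cebpb promoter held 0 matches to TTGCG and 3 to TGACG. Each held 1 match to TATAAA, which starts at position -30 in Cebpa and at position 22 in Cebpb, counted from the annotated start. Of all 32851 promoters in the table, 17.4% held TTGCG, 20.8% held TGACG and 13.6% held TATAAA. A match describes these letters and not a bound site.

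The 6 arrays were not of one quality. The array mTORi-HDL 1 correlated with the other 5 across all probe sets at r = 0.708 to 0.741, where those 5 correlated with one another at 0.892 to 0.912. The SD over its probe sets was 1.68, where the others had 2.04 to 2.09. Over the named genes its values followed the mean of the other 5 arrays with a slope of 0.58 and an intercept of 1.88. Brighter transcripts thus read low on it on average and dim ones high, although many of the brightest lay near equal values. The results of the 8 factors are therefore given with and without this array, and so are the fold changes printed for other genes where leaving it out changed the call or moved the value by over 1.5 times. Without it the treated group has 2 arrays. In limma's test over all 22180 genes, 0% were called at the adjusted threshold of 0.05 (the lowest adjusted value was 0.181), and 1029 genes had an unadjusted p under 0.05 (4.64%). Without mTORi-HDL 1 again 0% were called (the lowest adjusted value was 0.0919), and 1547 genes had an unadjusted p under 0.05 (6.97%). All values are log2 expression as deposited, fold changes are treated minus untreated, and levels are compared between arrays and never between genes.

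The label of the sort was checked against markers. Of 17 measured macrophage markers, 12 were higher in treated samples over 6 arrays and 16 without mTORi-HDL 1, with median changes of 0.36 and 1.01, against medians of 0.08 and -0.03 over all genes. Without mTORi-HDL 3, 9 of 17 were higher, with a median of 0.08. Csf1r, the PU.1-induced receptor through which colony-stimulating factor keeps macrophages alive, had 5.00, 8.75 and 9.08 on the treated arrays and 8.19, 7.54 and 7.93 on the untreated arrays. Adgre1, a surface receptor used to identify mouse macrophages, had 4.93, 7.42 and 8.72 on the treated arrays and 7.12, 6.05 and 6.84 on the untreated arrays. Cd68, a lysosomal membrane protein of phagocytes, had 9.47, 10.87 and 10.87 on the treated and 9.60, 9.70 and 8.78 on the untreated arrays. Macrophage transcripts were thus present in both groups, and Csf1r and Adgre1 were lower on mTORi-HDL 1 than on any other array. T cell transcripts were present as well: the mean of 15 T cell markers was 6.83, 8.50 and 8.40 on the treated arrays and 9.40 to 9.65 on the untreated arrays. All 15 had a lower mean in treated samples, and 11 reached an unadjusted p under 0.05 (3.07% of all genes were lower at that p). In bulk samples, fewer cells of a type and less RNA per cell cannot be told apart.

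**Figure D1:**
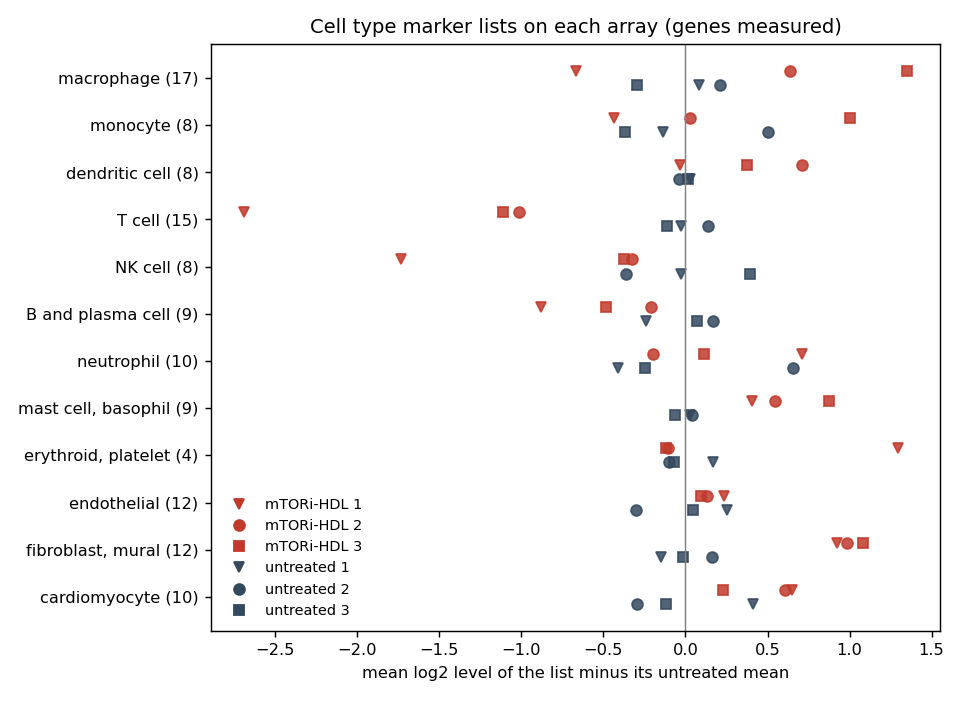
Mean log2 level of each cell type marker list on each array, minus the list's mean over the 3 untreated arrays (x axis), for 12 lists with the number of measured genes in parentheses; red symbols are treated arrays, dark symbols are untreated arrays, and the symbol gives the replicate. The macrophage list had -0.67 on mTORi-HDL 1, 0.64 on treated array 2 and 1.35 on treated array 3, and the T cell list lay at -2.69, -1.02 and -1.11.

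Of the 8 factors measured, 0 passed limma's test in either direction, with or without mTORi-HDL 1, and 0 had an unadjusted p under 0.05 in either fit (4.64% of all genes did over 6 arrays and 6.97% without that array). Over 6 arrays Cebpa, Cebpb, Klf2 and Klf4 had a higher mean in treated samples and Spi1, Maf, Pparg and Spic a lower one, so that 4 of 8 changes were positive, against 58.2% of all genes; without mTORi-HDL 1 again 4 of 8 were positive, against 46.6% of all genes. The signs of Spi1, Klf2 and Pparg turned under some alternatives, while those of Cebpa, Cebpb, Klf4, Maf and Spic were kept in all 14. The groups of 3 overlapped for all 8 factors (10.9% of all genes did not overlap, 5.37% higher and 5.53% lower in treated samples). With mTORi-HDL 1 left out, Spi1 was the 1 factor whose treated arrays lay above every untreated array (9.75% of all genes did so). The median change of the 8 was -0.11 over 6 arrays and 0.10 without that array, against 0.08 and -0.03 over all genes. It was also positive after quantile normalization (0.20), cyclic loess (0.37) and array weights (0.17). It was negative after median centring (-0.21) and with any 1 of the other 5 arrays left out (-0.10 to -0.0047).

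**Figure D2:**
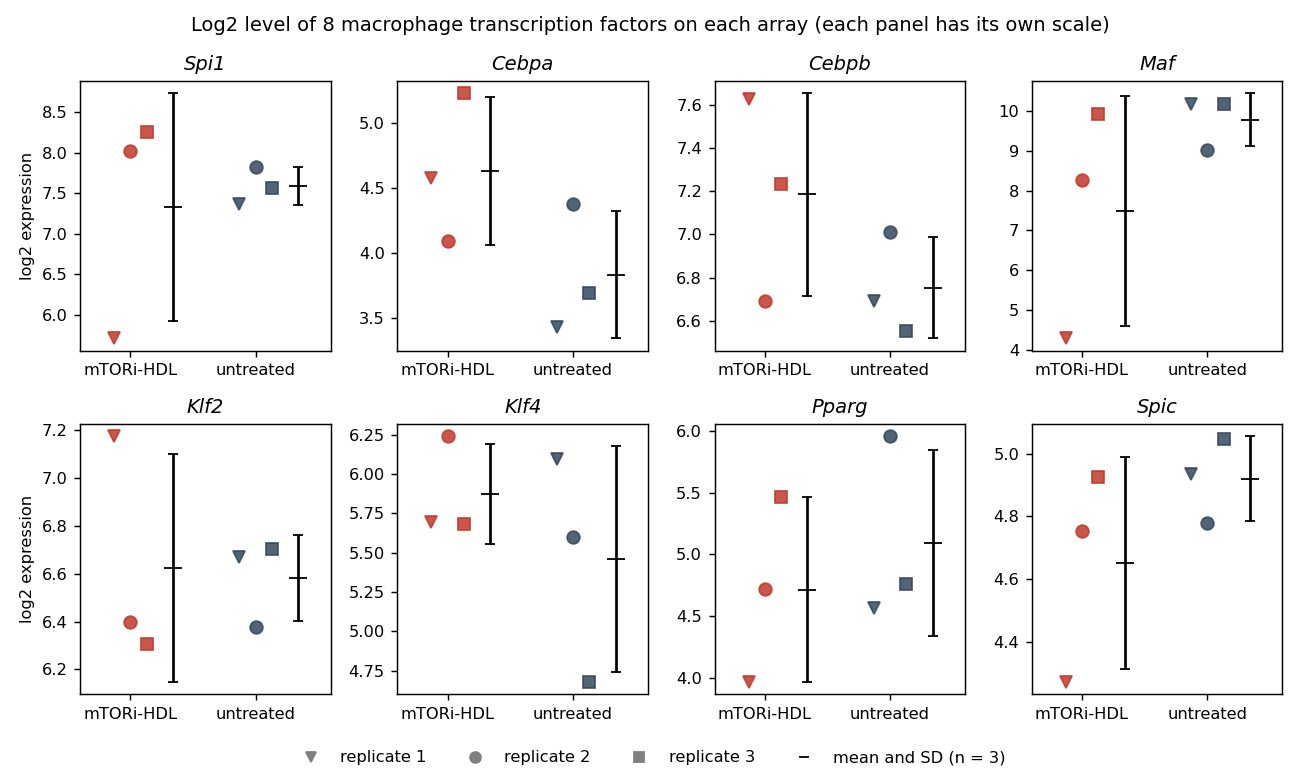
Log2 level of the 8 measured factors on each array (y axis, own scale per panel), mTORi-HDL left and untreated right; symbols give the replicate, and the bar is the mean with its SD (n = 3). mTORi-HDL 1, the triangle on the left of each panel, is the lowest of the 6 arrays for Spi1, Maf, Pparg and Spic and the highest for Cebpb and Klf2.

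Spi1, which encodes PU.1, had 5.71, 8.02 and 8.25 on the treated arrays and 7.36, 7.83 and 7.56 on the untreated arrays. The treated arrays 2 and 3 were above all untreated arrays, and mTORi-HDL 1 was below all of them. Treated samples averaged 7.33 ± 1.41 and untreated samples 7.59 ± 0.23 (SD, n = 3 each), a log2 fold change of -0.26 with a 95% interval of -1.77 to 1.26 (limma, adjusted p = 0.941). Without mTORi-HDL 1 the change was 0.55, with an interval of -0.02 to 1.12 (limma, unadjusted p = 0.0568, adjusted p = 0.73). The sign of this gene's change thus depended on 1 array, and quantile normalization (0.0022), cyclic loess (0.23) and array weights (0.47) also gave a positive value.

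The textbook targets of PU.1 were examined beside it. Of 19 measured targets, 12 were higher over 6 arrays and 18 without mTORi-HDL 1, with medians of 0.32 and 0.82. At an unadjusted p under 0.05, 3 were higher over 6 arrays (1.57% of all genes) and 8 without that array (3.47% of all genes), 0 were lower in either fit, and 0 passed adjustment. The list's mean lay at -1.13 on mTORi-HDL 1 and at 0.48 and 1.21 on treated arrays 2 and 3, relative to the untreated mean. Without mTORi-HDL 3 the list's median turned to -0.22. The 3 over 6 arrays were the Fc receptors Fcgr1 and Fcgr3, which bind antibody-coated particles, and Csf2ra, the ligand-binding chain of the receptor for granulocyte-macrophage colony-stimulating factor. Csf2ra had 6.50, 6.45 and 7.09 on the treated arrays and 5.98, 6.13 and 5.75 on the untreated arrays (log2 fold change 0.73 ± 0.29, SE; limma, adjusted p = 0.89). For these 3 genes mTORi-HDL 1 read higher than each untreated array, in contrast to Spi1 itself. Fcgr1 and Fcgr3 are also on the list of macrophage markers above. So are Csf1r, Adgre1, Cd68 and Msr1, which were among the targets called without mTORi-HDL 1. The counts of PU.1 targets therefore repeat part of the macrophage marker result.

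ETS-family relatives of Spi1 read low in treated samples. All 7 measured relatives had a lower mean over 6 arrays and 6 of 7 without mTORi-HDL 1, with medians of -0.74 and -0.57. Ets1, a factor of T and NK cells, had 6.02, 8.08 and 8.19 on the treated arrays and 8.82, 8.99 and 9.01 on the untreated arrays, a log2 fold change of -1.51 (limma, adjusted p = 0.89) and of -0.81 without mTORi-HDL 1 (adjusted p = 0.428). Spib, the nearest relative of PU.1 and a factor of B cells and plasmacytoid dendritic cells, had 3.51, 4.18 and 3.13 against 4.30, 4.63 and 5.85 on the untreated arrays. Fli1, an ETS factor of many blood lineages and of endothelium, had 7.96, 8.36 and 8.66 against 9.46, 9.02 and 8.72. The treated arrays lay below the untreated ones for these 3 genes, as they did for 12 of the 15 T cell markers (5.53% of all genes were lower without overlap); the part of T cell RNA in the ETS values was not tested.

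Cebpa, which encodes C/EBPα, the partner of PU.1 in granulocyte and monocyte progenitors, had the smallest unadjusted p of the 8 factors over 6 arrays. It had 4.57, 4.09 and 5.23 on the treated arrays and 3.43, 4.38 and 3.69 on the untreated arrays, so treated arrays 1 and 3 were above every untreated array and treated array 2 lay among them. Treated samples averaged 4.63 ± 0.57 and untreated samples 3.83 ± 0.49 (SD, n = 3 each). The log2 fold change was 0.80 with a 95% interval of -0.13 to 1.73 (limma, unadjusted p = 0.081, adjusted p = 0.89), and 0.83 without mTORi-HDL 1 (interval -0.19 to 1.85, adjusted p = 0.785). Here mTORi-HDL 1 did not decide the value. The probe set was dim: the median of all named genes lay between 4.03 and 4.38 on the 6 arrays.

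Cebpb, which encodes C/EBPβ, a factor induced by inflammatory signals and needed for Arg1 expression, had 7.63, 6.69 and 7.23 on the treated arrays and 6.69, 7.01 and 6.55 on the untreated arrays. The groups overlapped, with mTORi-HDL 1 the highest of the 6. The log2 fold change was 0.43 (95% interval -0.32 to 1.19; limma, adjusted p = 0.89) and 0.21 without that array (interval -0.43 to 0.85, adjusted p = 0.943). Both intervals leave room for an increase and for a decrease.

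Among 18 genes known to respond to C/EBP factors, 12 were higher over 6 arrays and 13 without mTORi-HDL 1, with medians of 0.33 and 0.53; without mTORi-HDL 3 the median was 0.09, and without untreated 2 it was 0.58. At an unadjusted p under 0.05, 2 were higher over 6 arrays (1.57% of all genes), Lyz1, a lysozyme, and Ccl2, the chemokine that draws monocytes, and 5 without mTORi-HDL 1 (3.47% of all genes). Ccl2 had 9.21, 9.75 and 9.61 on the treated arrays and 8.25, 8.57 and 7.69 on the untreated arrays. Its groups did not overlap (5.37% of all genes were higher without overlap), and its log2 fold change was 1.35 ± 0.32 (SE, limma, adjusted p = 0.702). Lyz1 had 5.43, 4.97 and 5.63 against 4.23, 2.89 and 3.50. Ccl3, a chemokine for T cells and monocytes, ran the other way, at 6.70, 9.82 and 9.86 on the treated arrays and 10.02, 11.51 and 10.56 on the untreated arrays, a change of -1.90 over 6 arrays (limma, adjusted p = 0.89) and of -0.86 without mTORi-HDL 1. The 4 measured C/EBP relatives had a median change of 0.01, which was -0.10 after median centring, with 0 at an unadjusted p under 0.05, among them Cebpe, a factor of late granulocyte development, with a change of -0.19 over 6 arrays and -0.39 without mTORi-HDL 1.

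Maf, which encodes c-Maf, varied more across the arrays than any other of the 8. Its brightest probe set had 4.29, 8.27 and 9.92 on the treated arrays and 10.16, 9.02 and 10.17 on the untreated arrays. The range of 5.88 was wider than that of 99.8% of all named genes, and mTORi-HDL 1 was the array far below the others. Treated samples averaged 7.49 ± 2.89 and untreated samples 9.79 ± 0.66 (SD, n = 3 each), a log2 fold change of -2.29 with an interval of -5.28 to 0.70 (limma, adjusted p = 0.89). Without mTORi-HDL 1 the change was -0.69 (interval -2.04 to 0.65, adjusted p = 0.895), and treated array 3 lay among the untreated arrays. A second, dimmer probe set of Maf had 4.31, 5.09 and 5.84 on the treated arrays and 6.10, 5.27 and 5.96 on the untreated arrays, a change of -0.70, and of -0.31 without mTORi-HDL 1. The order of the arrays was close on both probe sets, with mTORi-HDL 1 lowest and treated array 2 next.

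The brightest probe set of Maf read lower on mTORi-HDL 1 than the slope of that array gives for a gene of its level. From the line through all named genes, a gene with its mean on the other 5 arrays would read 7.42 on mTORi-HDL 1. This probe set read 3.13 below that, with only 0.239% of genes further below. The dimmer probe set of Maf was not set against the line. It spanned 1.79 over the 6 arrays, where the brightest spanned 5.88. Spi1 read 0.72 below its line, which is within the residual SD of 0.90. Cebpb and Klf2 read 1.76 and 1.51 above theirs, higher than 97.3% and 96.1% of genes, while Cebpa, Klf4, Pparg and Spic lay within 1 residual SD of the line.

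**Figure D3:**
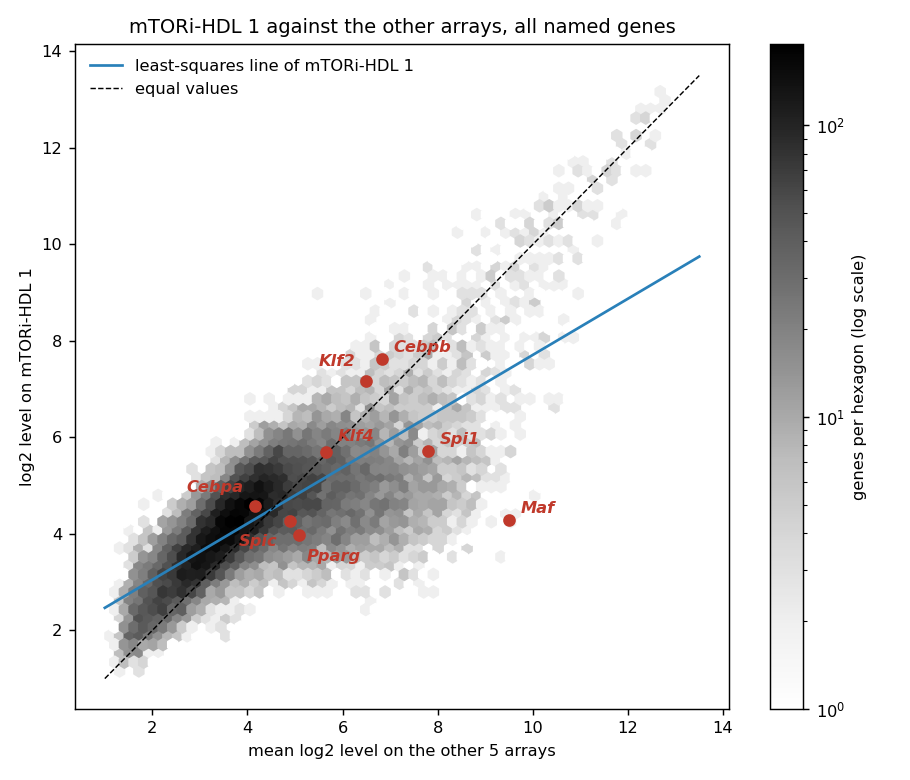
Log2 level on mTORi-HDL 1 (y axis) against the mean on the other 5 arrays (x axis) for all 22180 named genes; shading counts genes per hexagon, the blue line is the least-squares fit with a slope of 0.58, and the dashed line marks equal values. Maf, on its brightest probe set, stands 3.13 below the line, and Cebpb and Klf2 stand 1.76 and 1.51 above it.

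Maf is also known from T cells, where it supports interleukin-10, interleukin-4 and interleukin-21. The mean of the T cell markers, like Maf, was lowest on mTORi-HDL 1. Relative to the untreated mean, the mean of the 15 T cell markers lay at -2.69 on mTORi-HDL 1, at -1.02 on treated array 2 and at -1.11 on treated array 3. Cd4, the T helper coreceptor, had 3.08, 6.32 and 6.41 on the treated arrays and 7.78, 7.62 and 8.22 on the untreated arrays. Maf and Cd4 both read lowest on mTORi-HDL 1, and they differed on treated array 3, where Maf was within the untreated range and Cd4 was below it. On untreated 2 Maf (9.02) and Cd4 (7.62) had their lowest untreated values, while the mean of the T cell markers had its highest, 9.65. The part of T cells in the Maf values was not tested.

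Of 13 genes known to depend on c-Maf, 10 were higher over 6 arrays and 8 without mTORi-HDL 1, and the median was 0.14 in both fits and -0.0046 after cyclic loess. Over 6 arrays 3 were higher at an unadjusted p under 0.05 (1.57% of all genes) and 1 lower (3.07% of all genes). The lower one, named after its value was seen, was Il21, a cytokine of helper T cells (log2 fold change -1.39). The higher ones were C1qb and C1qc, chains of the complement protein C1q, and Mrc1, the mannose receptor. C1qc had 6.69, 6.56 and 6.47 on the treated arrays and 5.95, 5.81 and 5.65 on the untreated arrays. Its groups did not overlap (5.37% of all genes were higher without overlap), and its log2 fold change was 0.77 ± 0.25 (SE, limma, adjusted p = 0.89). C1qa, the remaining chain, read 6.33, 9.17 and 9.57 against 7.81, 7.56 and 6.51, so it followed C1qb and C1qc on treated arrays 2 and 3 and not on mTORi-HDL 1, where it read below every untreated array. The change of C1qa was 1.06 over 6 arrays and 2.07 without mTORi-HDL 1 (limma, unadjusted p = 0.241 and 0.00166, adjusted p = 0.89 and 0.287). Il10, the anti-inflammatory cytokine that c-Maf activates, read 4.66, 8.05 and 7.02 on the treated arrays and 7.32, 8.40 and 8.84 on the untreated arrays, and the groups overlapped (log2 fold change -1.60; limma, adjusted p = 0.89), with -0.65 without mTORi-HDL 1. Of the other Maf proteins, 5 were measured, with a median change of 0.16 over 6 arrays and -0.07 without mTORi-HDL 1, and 0 had an unadjusted p under 0.05.

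Klf2, a quiescence factor of monocytes, endothelium and naive T cells, had 7.17, 6.40 and 6.31 on the treated arrays and 6.67, 6.38 and 6.70 on the untreated arrays. It was highest on mTORi-HDL 1, and the other 5 arrays spanned only 0.40, with 13.4% of all genes spanning less. The change was 0.04 (95% interval -0.70 to 0.79; limma, adjusted p = 0.983) and turned to -0.23 without mTORi-HDL 1 (interval -0.76 to 0.30, adjusted p = 0.913). It turned negative after median centring as well.

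Klf4, a target of PU.1 in monocytes and a factor of alternative activation, had 5.70, 6.24 and 5.68 on the treated arrays and 6.10, 5.60 and 4.68 on the untreated arrays. The groups overlapped, and untreated 3 was the lowest of the 6. The change was 0.41 (interval -0.54 to 1.37; limma, adjusted p = 0.89), 0.50 without mTORi-HDL 1, 0.23 without mTORi-HDL 2 and 0.02 without untreated 3.

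Of 12 measured genes known to respond to KLF2 or KLF4, 8 were higher over 6 arrays and 9 without mTORi-HDL 1, with medians of 0.42 and 0.55; without mTORi-HDL 3, 6 were higher with a median of 0.16. At an unadjusted p under 0.05 there were 2 higher over 6 arrays (1.57% of all genes), Mrc1 and Retnla, markers of alternative activation. Retnla had 10.55, 7.55 and 6.12 on the treated arrays and 4.64, 6.56 and 5.22 on the untreated arrays, so the groups overlapped, and mTORi-HDL 1 was the highest of the 6. The change of Retnla was 2.60 over 6 arrays and 1.36 without mTORi-HDL 1, where it was not called (limma, unadjusted p = 0.0434 and 0.0723). Axl, a receptor for apoptotic cells, had 5.22, 6.60 and 7.44 against 5.48, 5.49 and 5.62, and the groups overlapped. Its change was 0.89 over 6 arrays (interval -0.35 to 2.13; limma, unadjusted p = 0.135, adjusted p = 0.89) and 1.49 without mTORi-HDL 1 (unadjusted p = 0.00165, adjusted p = 0.287). Over the 15 other KLF genes the median was 0.07, with -0.03 after median centring and -0.06 without mTORi-HDL 1, with 0 at an unadjusted p under 0.05. KLF2 and KLF4 are abundant in endothelium. The 12 endothelial markers lay at 0.24, 0.13 and 0.10 on the treated arrays relative to the untreated mean. The untreated arrays themselves spanned -0.30 to 0.25. Of the 12, 10 were higher over 6 arrays and 6 without mTORi-HDL 1. Most were dim, and 3 remained when dim genes were dropped. Eng was the 1 marker higher at an unadjusted p under 0.05 over 6 arrays (1.57% of all genes). Its change was 1.32, and 1.72 without mTORi-HDL 1. The part of endothelium in the Klf2 and Klf4 values was not tested.

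**Figure D4:**
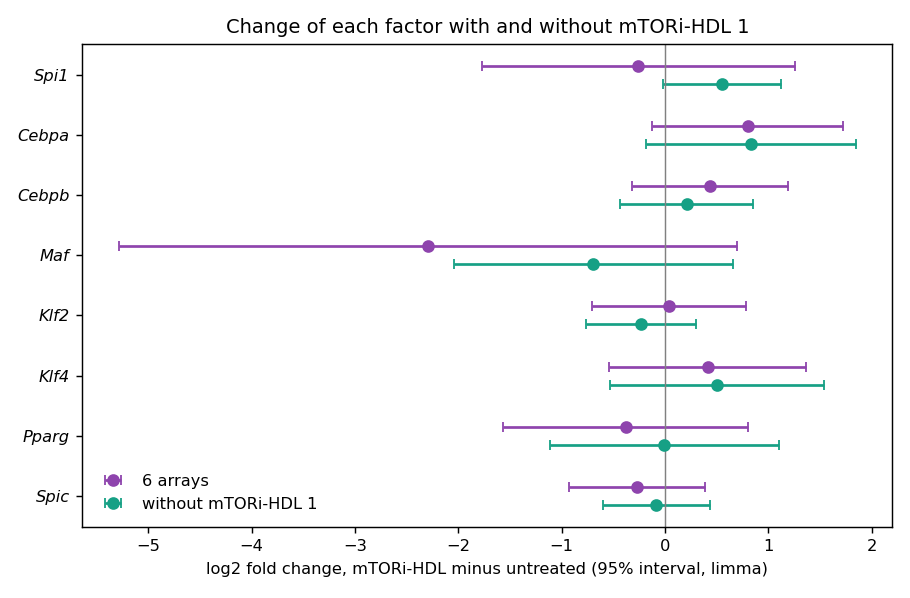
Log2 fold change of each factor, mTORi-HDL minus untreated (x axis), with its 95% interval from limma, over 6 arrays and without mTORi-HDL 1. All intervals include 0; the interval of Maf is the widest, from -5.28 to 0.70 over 6 arrays, and the interval of Spi1 is -0.02 to 1.12 without mTORi-HDL 1.

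Pparg, the lipid-activated nuclear receptor PPARγ of alveolar and lipid-laden macrophages, had 3.97, 4.72 and 5.46 on the treated arrays and 4.56, 5.95 and 4.76 on the untreated arrays. The groups overlapped, and untreated 2 was the highest of the 6. Treated samples averaged 4.72 ± 0.75 and untreated samples 5.09 ± 0.75 (SD, n = 3 each), a change of -0.38 (interval -1.56 to 0.80; limma, adjusted p = 0.898) and of -0.01 without mTORi-HDL 1 (interval -1.11 to 1.10, adjusted p = 0.999). Leaving out untreated 2 turned the change to 0.05.

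The targets of PPARγ gave a different picture from the receptor transcript. Of 16 measured targets, 11 were higher over 6 arrays and 12 without mTORi-HDL 1. At an unadjusted p under 0.05, 3 were higher and 1 lower over 6 arrays (1.57% and 3.07% of all genes), and 4 higher and 1 lower without mTORi-HDL 1 (3.47% and 3.51%), with 0 past adjustment. The lower one, named after its value was seen, was Hadha, an enzyme of mitochondrial fatty acid oxidation (log2 fold change -1.34 over 6 arrays and -0.74 without mTORi-HDL 1). Fabp4, the fatty acid binding protein of adipocytes and macrophages, had 5.86, 6.84 and 7.33 on the treated arrays and 4.97, 3.79 and 4.57 on the untreated arrays (log2 fold change 2.23 ± 0.47, SE; limma, adjusted p = 0.696). Without mTORi-HDL 1 the change of Fabp4 was 2.64 ± 0.38 (adjusted p = 0.172). Lpl, lipoprotein lipase, and Olr1, a scavenger receptor for oxidised lipoprotein, had changes of 2.06 and 2.18. All 3 treated arrays lay above all 3 untreated arrays for Fabp4, Lpl and Olr1, mTORi-HDL 1 included (5.37% of all genes did so). These genes were named for having the list's smallest p over 6 arrays. The list's median was smaller, at 0.17 over 6 arrays, 0.19 without mTORi-HDL 1, 0.07 after median centring, 0.03 after quantile normalization and 0.02 without mTORi-HDL 3. Fabp4 and Lpl are also expressed by fat, endothelium and heart muscle. Connective tissue markers (12) lay at 0.92, 0.99 and 1.08 on the treated arrays relative to the untreated mean and cardiomyocyte markers (10) at 0.65, 0.61 and 0.23; their part in the lipid genes was not tested.

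Among the receptors and coactivators that work with PPARγ, 8 were measured and 0 had an unadjusted p under 0.05. Nr1h3 is the oxysterol receptor LXRα and itself a PPARγ target. It had 3.86, 4.28 and 4.55 on the treated arrays and 4.77, 5.31 and 4.56 on the untreated arrays. The groups did not overlap (5.53% of all genes were lower without overlap), and the change was -0.65 (limma, adjusted p = 0.89). Ppargc1b, a coactivator, had 4.78, 4.70 and 4.07 against 3.75, 3.90 and 3.91, also without overlap (5.37% of all genes were higher without overlap). Its change was 0.66 (limma, adjusted p = 0.89).

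Spic, an ETS factor of splenic red pulp macrophages that heme induces, had 4.27, 4.75 and 4.93 on the treated arrays and 4.94, 4.78 and 5.05 on the untreated arrays. Apart from mTORi-HDL 1 its values spanned 0.29, with 5.64% of all genes spanning less. The change was -0.27 (interval -0.93 to 0.39; limma, adjusted p = 0.89) and -0.08 without mTORi-HDL 1 (interval -0.60 to 0.43, adjusted p = 0.979). A further list, with 11 genes measured, joined genes of iron recycling, SpiC's targets and transcription regulators such as Bach1 and Nr1h3. Of these, 6 were higher over 6 arrays and in the fit without mTORi-HDL 1 alike, with medians of 0.05 and 0.03 (-0.05 over 6 arrays after median centring), and 0 had an unadjusted p under 0.05 in either. Vcam1, an adhesion molecule that SpiC induces in red pulp macrophages, had 4.97, 4.78 and 6.00 on the treated arrays and 4.71, 4.70 and 4.17 on the untreated arrays (change 0.72, adjusted p = 0.89). Bach1, the heme-sensing repressor of Spic, had 5.66, 6.04 and 6.74 against 5.76, 5.58 and 5.90, and the groups overlapped.

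Irf5 itself was not measured, but genes downstream of it were. Of 11 measured targets 7 were higher over 6 arrays and 8 without mTORi-HDL 1, with medians of 0.18 and 0.23. Without mTORi-HDL 3 the median was 0.01. These counts took no account of whether IRF5 raises or lowers a gene. Il10, given above, was on this list too, with a change of -1.60 over 6 arrays and -0.65 without mTORi-HDL 1. Cxcl10, a chemokine for activated T cells, was the 1 target at an unadjusted p under 0.05 over 6 arrays (1.57% of all genes were higher at that p). It had 10.41, 9.74 and 9.60 on the treated arrays and 8.85, 9.28 and 8.56 on the untreated arrays (log2 fold change 1.02 ± 0.34, SE; limma, adjusted p = 0.89). Without mTORi-HDL 1, 2 targets were higher at that p (3.47% of all genes), Cxcl10 and Il1b. The change of Il1b was -0.13 over 6 arrays and 0.93 without mTORi-HDL 1. A list made for genes upstream of IRF5, with 9 measured, also held Tnpo3, whose place there was not tested. The median of this list was -0.12 over 6 arrays, 0.15 after quantile normalization, 0.12 after cyclic loess and 0.38 without mTORi-HDL 1, and 0 had an unadjusted p under 0.05. Of 7 measured IRF relatives, 0 had an unadjusted p under 0.05 over 6 arrays and 2 did without mTORi-HDL 1, both higher (3.47% of all genes). These were Irf1, an interferon-induced activator, with 5.27, 7.42 and 8.33 on the treated arrays and 7.14, 6.80 and 6.80 on the untreated arrays, and Irf2, its antagonist, with 4.56, 8.70 and 8.92 against 8.08, 8.46 and 7.57. The changes of Irf1 and Irf2 were 0.09 and -0.64 over 6 arrays, and 0.96 and 0.77 without mTORi-HDL 1.

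Across 26 further factors of the mononuclear phagocyte network, 16 were higher and 10 lower in both fits, with medians of 0.07 and 0.21, and the median over 6 arrays was -0.04 after median centring and -0.11 without mTORi-HDL 3. At an unadjusted p under 0.05, 2 were higher over 6 arrays (1.57% of all genes) and 3 without mTORi-HDL 1 (3.47%), and 0 were lower. Mitf, a factor of lysosomal genes in macrophages and osteoclasts and of mast cells, had 4.18, 4.40 and 4.91 on the treated arrays and 3.27, 3.68 and 3.51 on the untreated arrays. Its log2 fold change was 1.01 ± 0.30 (SE; limma, adjusted p = 0.89), and 1.17 without mTORi-HDL 1. Mast cell and basophil markers were higher as well, 8 of 9 over 6 arrays. Most of the 9 were dim: their mean level on the untreated arrays was 3.44, and 3 remained when dim genes were dropped. The list lay at 0.40, 0.54 and 0.87 on the treated arrays relative to the untreated mean, with the untreated arrays at -0.06 to 0.04. Of these 9, Kit, Fcer1a and Cma1 were higher at an unadjusted p under 0.05 over 6 arrays (1.57% of all genes). Without mTORi-HDL 1, Fcer1a, Cma1 and Mcpt4 were (3.47% of all genes), and Kit was not. Mcpt4 had 2.33, 5.01 and 5.43 on the treated arrays and 2.41, 2.93 and 2.67 on the untreated arrays, so unlike Mitf it was lowest on mTORi-HDL 1. Its change was 1.59 over 6 arrays and 2.55 without that array. The part of mast cells and basophils in the Mitf values was not tested. Id3, an inhibitor of helix-loop-helix factors that marks Kupffer cells, had 4.94, 5.59 and 5.79 against 4.81, 4.34 and 4.69. For Mitf and Id3 every treated array lay above every untreated array (5.37% of all genes did so). Mitf was dim, with an untreated mean of 3.49, where the median of all named genes lay between 4.03 and 4.38 on the 6 arrays. Dim genes on average read high on mTORi-HDL 1.

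The factors were also set against the macrophage content of each array, as each gene's log2 level minus the mean of the 17 macrophage markers on that array, with no test; the level of this difference has no meaning, since probe sets differ in brightness. For Maf the difference was -3.17, -0.49 and 0.44 on the treated arrays and 1.96, 0.69 and 2.34 on the untreated arrays, so the groups did not overlap (10.8% of all genes lay lower without overlap after the same subtraction), and the difference of the means, treated minus untreated, was -2.73, against a median of -0.36 over all genes. For Spi1 it was -1.74, -0.74 and -1.22 on the treated arrays and -0.84, -0.51 and -0.27 on the untreated arrays, with overlap. Without mTORi-HDL 1 the treated arrays lay below the untreated arrays for 5 of 8 factors, Cebpb, Maf, Klf2, Pparg and Spic, and 73.2% of all genes did so. The markers subtracted were themselves higher by 0.99 on treated arrays 2 and 3, so most genes read low on this scale, with a median of -1.02 over all genes. The mean differences of the 5 ran from -0.78 for Cebpb to -1.69 for Maf. For Spi1, Cebpa and Klf4 they overlapped, with mean differences of -0.44, -0.17 and -0.49.

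**Figure D5:**
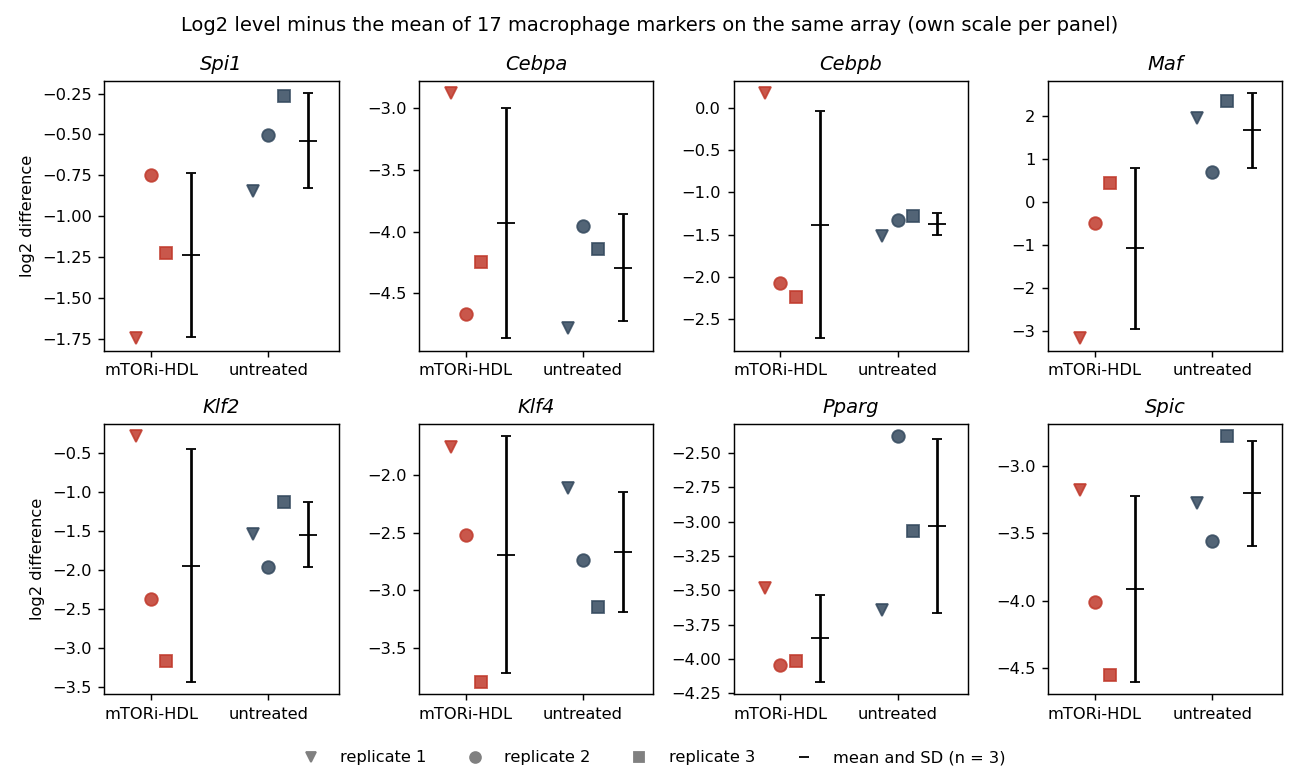
Log2 level of each factor minus the mean log2 level of 17 macrophage markers on the same array (y axis, own scale per panel), mTORi-HDL left and untreated right; symbols give the replicate, and the bar is the mean with its SD (n = 3). For Maf the 3 treated values, -3.17 to 0.44, all lie below the untreated values, 0.69 to 2.34.

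Genes with the most similar pattern were sought by the root mean square difference over the 6 arrays, after each gene was centred on its own mean. Akr1a1, Ifit1 and Sbno2 were nearest to Spi1, with differences of 0.08, 0.11 and 0.12 on the log2 scale. Ccrl2, F13a1 and Papss2 were nearest to Cebpa, at 0.10, 0.17 and 0.19. Nearest to Maf were Capn2, Ddx5 and Ywhah, at 0.31, 0.42 and 0.53. Wsb1, Vti1a and Trappc11 followed Pparg at 0.12 to 0.18. For Cebpb, Klf2, Klf4 and Spic the nearest genes lay at 0.04 to 0.17, led by Crxos, Fam90a1b, Cyp4b1-ps2 and Rabggta. With 6 arrays and 22180 genes a close pattern can be found without any relation between the genes. Leaving out mTORi-HDL 1 narrowed the range of Maf to 1.90 and of Spi1 to 0.89, while those of Cebpa and Klf4 stayed at 1.80 and 1.56.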

How the data were processed

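Gene expression was measured on 6 Affymetrix arrays, 3 per group, each from 15 ng of RNA amplified before labelling, per the labels' protocols. The authors deposited log2 values; the submitters' processing notes name RMA and the program Affymetrix Expression Console, and versions, genome build and probe-set filters are not given in the sources used here. RMA corrects background, quantile-normalizes and summarises probes, which can compress changes of dim genes. The table held 41345 probe sets: 23521 had 1 gene symbol in the platform annotation, 1814 several and 16010 none. The brightest probe set of each of 22180 genes was tested between the groups by a moderated linear model without covariates (limma 3.58.1, run under R 4.3.3; two-sided, Benjamini-Hochberg over all genes), with no filter and no further normalization. Arrays have no read depth, and their number limits the precision. The test was tried on simulated arrays with known changes. Their spreads were taken from the arrays other than mTORi-HDL 1, so the trial does not cover an array like that one.

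The factors and 27 lists of relatives, targets and cell type markers were chosen with earlier results of these data known. The lists hold 284 genes, of which 260 were measured, 18 were not analysed here and 6 had only shared probe sets; the 9 factors were left out of every list. Lists were counted and given a median, with no set test. Named genes were the 9 factors, 5 macrophage markers, the 3 genes of each list with the smallest p over 6 arrays and the 2 with the smallest without mTORi-HDL 1, and the 3 nearest patterns of each factor. RefSeq promoters, build GRCm38.p6, were searched for short motifs on both strands.

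The replicate numbers are shared between the groups. Correlations of same-numbered arrays' deviations from their group means were 0.14, 0.13 and -0.02, so the numbers were not taken to pair the samples.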

Additional observations from a re-analysis of the deposited data

How the results depend on the processing

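The 14 alternatives left out each array in turn, centred, quantile-normalized or loess-normalized the arrays, dropped dim genes, changed the variance model, weighted arrays, used the replicate number as a block, or averaged probe sets. The count of genes past an adjusted p of 0.05 was 0 over 6 arrays and 0 under 13 of them (0 to 0 with an array left out), and 1 with array weights, H2bc12, a histone gene (adjusted p = 0.02); mTORi-HDL 1 had a weight of 0.149 there, against 1.23 to 1.86 for the other arrays. At an unadjusted p under 0.05 the count was 1029, with 349 higher and 680 lower. The replicate block left 0 genes and changed no call among the 8 factors; Cebpa was at 0.80 with an unadjusted p of 0.116 there and Maf at -2.29 with 0.0887.

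Signs turned as follows. Spi1 (-0.26 over 6 arrays) was at 0.55 without mTORi-HDL 1, 0.0022 after quantile normalization, 0.23 after cyclic loess and 0.47 with array weights. Klf2 (0.04) was at -0.23 without mTORi-HDL 1, -0.06 without untreated 2, -0.062 after median centring and -0.21 with array weights. Pparg (-0.38) was at 0.051 without untreated 2 and 0.043 with array weights. Of other named genes, Csf1r was at 1.03 without mTORi-HDL 1, 0.20 after cyclic loess and 0.86 with array weights, and Irf2 at 0.77 without mTORi-HDL 1 and 0.64 with array weights. Irf1 was at -0.11 without mTORi-HDL 2, -0.57 without mTORi-HDL 3 and -0.011 after median centring, and Adgre1 and Mertk were at -0.50 and -0.11 without mTORi-HDL 3. With 1 array left out, the ranges were -0.72 to 0.55 for Spi1, -0.75 to 0.051 for Pparg, -1.01 to 1.03 for Csf1r, -0.50 to 1.40 for Adgre1, -0.11 to 0.94 for Mertk, -0.57 to 0.96 for Irf1 and -1.41 to 0.77 for Irf2. The cause was not tested.

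The ranges over the 14 settings were 0.50 to 1.07 for Cebpa, 0.21 to 0.92 for Cebpb, -3.51 to -0.69 for Maf, 0.02 to 0.73 for Klf4 and -0.41 to -0.08 for Spic. An unadjusted p under 0.05 in limma was reached by Cebpa without mTORi-HDL 2 (0.0387), without untreated 2 (0.0424) and with array weights (0.0385). Of all 22180 genes, 1495, 655 and 1768 reached it in these settings, in that order. Maf reached it without mTORi-HDL 3 (0.0158), where 1406 of all genes did. The smallest adjusted p of any factor was 0.582. Median centring moved the median change of all genes from 0.08 to -0.03. The share of higher genes among those at an unadjusted p under 0.05 was 33.9% as deposited, 25.8% after median centring, 37.4% after quantile normalization, 41.5% after cyclic loess, 43.7% with the other variance model, 47.5% with array weights (839 higher, 929 lower), 49.7% without mTORi-HDL 1 (769 higher, 778 lower) and 21.7% with dim genes dropped (138 higher, 497 lower). The number at that p was 1547 without mTORi-HDL 1, 1768 with array weights, 655 and 615 without untreated 2 and 3, and 635 with dim genes dropped.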

Other observations

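Transcripts that were highest on mTORi-HDL 1 included some of other cell types, chosen here after their values were seen. Pf4, platelet factor 4, had 8.45, 5.06 and 4.97 on the treated arrays and 5.96, 4.77 and 5.43 on the untreated arrays. Retnlg, a neutrophil gene, had 6.87, 3.47 and 3.24 on the treated arrays and 2.14, 5.41 and 2.38 on the untreated arrays. The 4 measured genes of the erythroid and platelet list were all platelet genes: Pf4, Ppbp, Itga2b and Gp9. Their mean on mTORi-HDL 1 exceeded the untreated mean by 1.29. Pf4, Ppbp and Itga2b were highest on that array, and Gp9 was not (3.78, with 3.22 to 4.09 on the untreated arrays). The mean of the 10 neutrophil markers exceeded its untreated mean by 0.71 on mTORi-HDL 1, and by 0.66 on untreated 2. Cebpb and Klf2 were also highest on mTORi-HDL 1.

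Batf3, which is needed for dendritic cells that cross-present antigen, had 7.93, 7.33 and 7.24 on the treated arrays and 6.21, 6.04 and 5.29 on the untreated arrays (limma, adjusted p = 0.696 over 6 arrays and 0.354 without mTORi-HDL 1). Xcr1, a chemokine receptor of the same cells, had 4.02, 6.47 and 5.93 on the treated arrays and 4.68, 4.51 and 4.34 on the untreated arrays. Itgae, an integrin chain of some dendritic and T cells, ran the other way, with 3.13, 4.18 and 4.43 on the treated arrays and 4.66, 5.64 and 4.78 on the untreated arrays (log2 fold change -1.11 over 6 arrays and -0.72 without mTORi-HDL 1; limma, unadjusted p = 0.0367 and 0.0733). Xcr1 overlapped over 6 arrays. The 8 dendritic cell markers lay at -0.04, 0.71 and 0.37 relative to the untreated mean on the treated arrays.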
